A study of Caenorhabditis elegans with 2 samples.

Results

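The genes described here encode the Sm proteins of Caenorhabditis elegans, snr-1 to snr-7. They are 7 of the 19973 nuclear protein-coding genes in the WBcel235 annotation, and each name matched exactly 1 gene. They were chosen by name, with earlier results of these data known, in which snr-1 and snr-4 had already been seen to carry a promoter peak of the tagged protein. Binding was mapped in 2 biological replicates of early embryos, collected 0 h after the eggs were isolated by bleaching, with an antibody to GFP. The strain, OP642, has the genotype unc-119(tm4063) III; wgIs642, and its transgene makes the protein encoded by B0310.2 with a GFP-FLAG tag at its C terminus. Both samples are of this single group, mixed in sex. The labels used here do not state which promoter drives the transgene. The material was whole embryos, so a region bound in more cells and a region bound more strongly per cell cannot be told apart.

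Sm proteins assemble into a ring around a U-rich site of small nuclear RNAs (snRNAs), and the resulting particles form the core of the spliceosome, which removes introns from pre-mRNA. In nematodes the same ring also sits on the spliced leader RNAs that are joined to the 5' ends of many mRNAs. The ring is built from pre-formed subcomplexes. Its subunits are SmD1 (snr-3) and SmD2 (snr-4), SmD3 (snr-1) and SmB (snr-2), and SmE (snr-6), SmF (snr-5) and SmG (snr-7).

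The data were the authors' lists of regions in build ce11. Each replicate and the pool of both has 30000 regions, background included. The optimal list, which passed the authors' threshold on consistency of rank, holds 642 regions. By position and summit these were exactly the 642 strongest of the pooled list. Each region has a signal, the authors' own value, whose scale is not given in the sources used here, so it is read within a list only, and replicates are set side by side by rank, where rank 1 is the strongest region. A gene was counted as having a region when a summit fell inside the promoter window of one of its transcripts, which began 1000 bp before the 5' end and closed 300 bp past it. Offsets below are in bp from that 5' end, negative upstream. The lists hold no read counts, so depth is unknown. With 1 group, 2 samples and members named from these results, no test was made.

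Peaks of the optimal list lay at snr-1 and snr-4, and not in the windows of the other 5 genes. Across all protein-coding genes, 370 of 19973 (1.85%) had such a summit. Because these genes were named with that result known, nothing is read from this difference. The snr-1 peak lay in the space between snr-1 and a gene on the opposite strand. The snr-4 peak had its summit inside an snRNA gene. These sites are shown here because both peaks rest on them, as 300 bases of the plus strand of assembly WBcel235 (RefSeq) around the summit. In the snr-1 site, chrIV:17087482-17087781, capitals mark the 11 bases centred on the pooled summit. In the snr-4 site, chrV:11980096-11980395, capitals mark the annotated snRNA gene.
snr-1 site: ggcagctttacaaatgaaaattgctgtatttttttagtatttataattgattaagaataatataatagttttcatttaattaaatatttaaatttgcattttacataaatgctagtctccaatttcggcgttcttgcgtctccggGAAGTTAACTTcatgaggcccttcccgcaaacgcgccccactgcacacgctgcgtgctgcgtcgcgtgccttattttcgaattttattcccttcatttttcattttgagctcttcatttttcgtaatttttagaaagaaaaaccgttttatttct
snr-4 site: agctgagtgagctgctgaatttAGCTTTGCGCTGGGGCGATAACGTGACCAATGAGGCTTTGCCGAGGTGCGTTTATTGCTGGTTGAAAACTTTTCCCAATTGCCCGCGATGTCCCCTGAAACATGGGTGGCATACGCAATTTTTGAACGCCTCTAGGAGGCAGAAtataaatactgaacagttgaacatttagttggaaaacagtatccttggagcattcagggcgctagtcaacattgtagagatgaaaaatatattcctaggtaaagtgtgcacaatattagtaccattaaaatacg

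Counted over the summit and the 150 bp on either side, G and C made up 34.2% of the snr-1 site and 43.2% of the snr-4 site, and 44.1% ± 6.92 (mean and SD) of the 642 optimal peaks. No copy of the snr-1 site at 90% identity or more was found elsewhere in the genome over at least 30% of its length. In the snr-4 site 151 of the 300 bases were matched at that identity, at 4 other places. Both windows were searched on both strands for 5 sequences of 6 bases, of which the first 3 below had been listed at the peaks in earlier results of these data. Shares are given over the 642 optimal windows and over the strongest pooled window of each of the 7659 genes with one. The letters AGAGCG were in 24.8% of the optimal windows and 10.1% of the gene windows, and in neither Sm gene site. The letters AGCGCG were in 16.2% and 8.32%, and again in neither site. The same was true of GCGCGC, which can overlap the former and was in 14.6% and 6.66%. The letters TATAAA, found in 22.1% of the optimal windows and 26.6% of the gene windows, occurred on the minus strand at -111 to -106 bp from the snr-1 summit in plus strand coordinates. In the snr-4 site they were on the plus strand 16 to 21 bp to the right of the summit, directly after the last base of the snRNA gene. The letters TTTCAG, present in 27.9% of the optimal windows and 45.5% of the gene windows, occurred in the snr-4 site and not in the snr-1 site. The absence of a sequence says only that those letters are not in the window. The snr-1 window was centred on the pooled summit, and the strongest replicate 1 summit, at 17087481, lay just outside it. Sequence around that summit was therefore searched only in part.

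The snr-1 gene (WBGene00004914, IV:17088049-17088946, plus strand), which encodes SmD3, had the strongest region among the Sm genes. The optimal peak spanned IV:17087394-17087869 with its summit at 17087632, 417 bp upstream of the 5' end. Its pooled signal was 336 at rank 85. In replicate 1 the strongest region in the window had a signal of 89.9 at rank 113, and in replicate 2 it had a signal of 261 at rank 64. Both replicates thus placed it among their strongest 642 regions. The summits were less alike than the ranks. Replicate 1 listed its strongest summit at -568 and a further one at -366 (signal 46.4, rank 794), on either side of the single summit that replicate 2 and the pool had at -417. The strongest summits of the replicates were 151 bp apart.

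The snr-1 peak was shared with snx-13, which encodes a sorting nexin and lies on the minus strand. The 5' ends of snr-1 and snx-13 face away from each other across a gap of 610 bp, and the summit was 194 bp upstream of the snx-13 5' end, closer than to snr-1. The strongest replicate 1 summit was the nearer of its pair to snx-13. By position, therefore, this peak belongs to either promoter or to both. Of 297 optimal peaks with a summit in a protein-coding window, 80 (26.9%) were in the windows of more than 1 gene. The nearest gene of the small RNA classes (tRNA, snRNA, snoRNA, miRNA and rRNA) was a miRNA gene 5229 bp from the snr-1 summit.

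**Figure D1:**
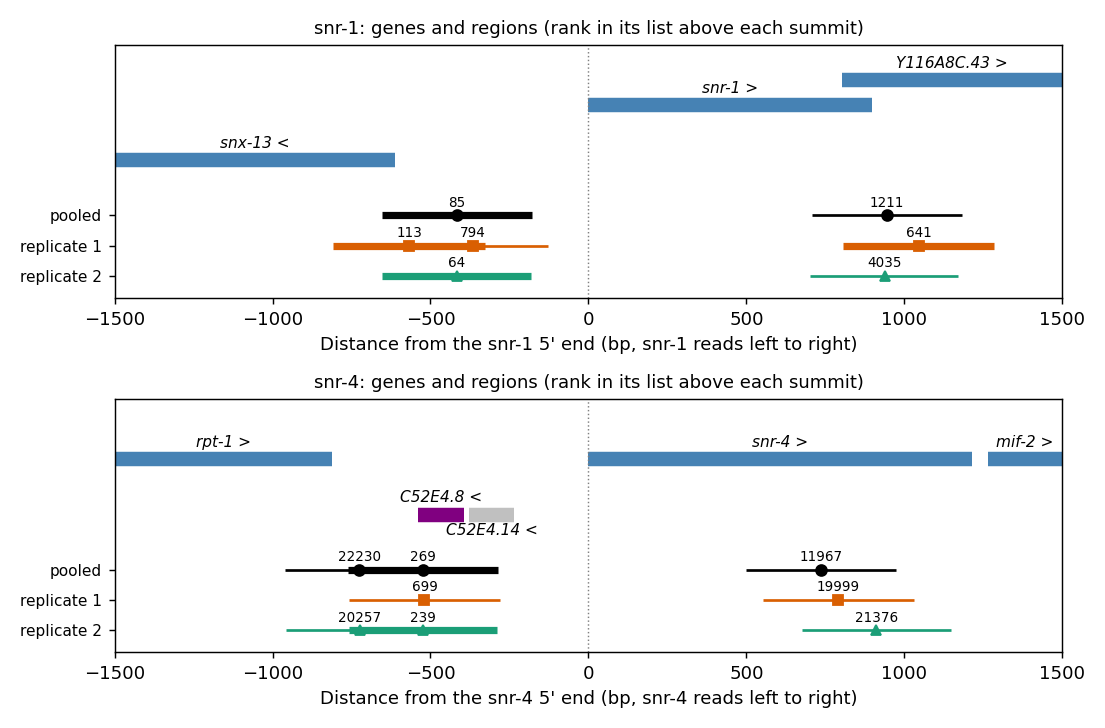
Genes and listed regions around snr-1 (top) and snr-4 (bottom), by distance in bp from the 5' end of the Sm gene, which reads from left to right. Blue bars are protein-coding genes, the purple bar is the snRNA gene C52E4.8, the grey bar is another noncoding RNA gene, and > or < gives the strand relative to the Sm gene. Lines below span the regions of each list, thick where the rank is within 642, with the rank above each summit. The snr-1 peak sits between snr-1 and snx-13, and the snr-4 peak lies over C52E4.8.

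The snr-2 gene (WBGene00004915, I:13339397-13340224, plus strand) encodes SmB, the partner of SmD3 in the ring. Its strongest pooled region had a signal of 75.4 at rank 5323, with the summit 187 bp downstream of the 5' end, inside the gene. Replicate 2 had the region at +224 with a signal of 64.5 at rank 2750. Replicate 1 had a summit at -217 (signal 18.7, rank 21618) and one at +137 (17.7, rank 24040). The replicates therefore differed widely in rank here, and their strongest summits were 441 bp apart. The −log10 q value of the pooled region was 0.381 in the authors' list, against 2.47 for the snr-1 and snr-4 peaks. That 2.47 was the highest value in the pooled list, so it does not set the 2 peaks apart.

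The snr-4 gene (WBGene00004917, V:11978508-11979723, minus strand), which encodes SmD2, carried the other optimal peak. It spanned V:11980008-11980483 with its summit at 11980246, 523 bp upstream of the snr-4 5' end. The pooled signal was 203 at rank 269. Replicate 1 had a signal of 47.9 at rank 699, and replicate 2 had a signal of 151 at rank 239. Replicate 2 thus ranked it within its strongest 642 regions and replicate 1 just outside them. The position was closely shared, with the replicates' summits 4 bp apart. A second, weak region was listed at -725 in the pool (signal 45.5, rank 22230) and at -724 in replicate 2 (33.8, rank 20257).

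The snr-4 summit lay inside C52E4.8, an snRNA gene on the opposite strand to snr-4 (V:11980118-11980261, WBGene00014291), 128 bp from that gene's 5' end. RefSeq names this gene C52E4.8, and the Ensembl annotation gives it the name T11F9.15, which it also gives to another snRNA gene on the same chromosome. Another noncoding RNA gene, C52E4.14 (V:11979959-11980101), lay on its other side, between it and snr-4. Thus the snr-4 promoter window and the snRNA gene cannot be told apart as the place of this peak. Of the 370 genes with an optimal summit in the window, 20.8% had such a small RNA gene at most 200 bp from the strongest one.

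The snRNA gene under the snr-4 peak has near-identical copies. At 90% identity or more over at least 90% of its length, 4 other annotated snRNA genes matched, all on chromosome V. T11F9.15 (V:11478148-11478291) was 100% identical, K03B8.10 and T11F9.16 were each 99.3% identical and F10D2.13 was 97.9% identical. None of the 4 had an optimal peak within 200 bp. No pooled region was listed at T11F9.15, and the strongest pooled regions at K03B8.10, T11F9.16 and F10D2.13 had signals of 45.5 (rank 22149), 61.8 (rank 10193) and 62.6 (rank 9830). Of the 5 copies, only the one beside snr-4 had an optimal peak. Reads from the copied bases match several genes, and how the authors treated such reads is not given in the sources used here.

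Within C52E4.8 the letters ATTTTTG began at base 118 of the gene, at -11 to -5 bp from the summit on the plus strand. This U-rich stretch is of the kind that Sm rings bind in the RNA, and it was looked up after the sequence had been seen. The same letters were in 72 of the 129 annotated snRNA genes on their own strand (55.8%) and in 123 of the 642 peak windows on either strand (19.2%). The match is a description of the RNA gene's sequence. Binding was measured on chromatin.

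The snr-3 gene (WBGene00004916, II:6488830-6489761, minus strand), which encodes SmD1, the partner of SmD2, had no region in its windows in any list. It has 2 annotated transcripts. The nearest pooled summit was inside the gene, 344 bp downstream of the nearer 5' end and so just outside the window, with a signal of 47.9 at rank 19930, and replicate 2 listed it at 342 bp (signal 35.3, rank 18245). Upstream, snr-3 faces away from rsp-5, an SR splicing protein gene, across 403 bp, and no list had a summit between them. A strong peak lay beyond rsp-5, at -2218 bp from snr-3, with a pooled signal of 241 at rank 180, rank 319 in replicate 1 and rank 154 in replicate 2. That summit was 14 bp inside T28D9.11, a gene for an uncharacterized protein, and also in the promoter window of T28D9.1, upstream of its 5' end. The noncoding RNA gene T28D9.13 was within 200 bp.

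The genes of the SmE, SmF and SmG subunits had only low-ranked regions. At snr-6 (WBGene00004919, III:12429172-12429629, minus strand; SmE) the pooled region was at -414 with a signal of 66.5 at rank 8149. Replicate 2 had it at -414 with a signal of 64.4 at rank 2769. Replicate 1 had none there and listed a summit at +290, just inside the window, with a signal of 25.8 at rank 8927. The strongest summits of the replicates were thus 704 bp apart, at different places of the gene.

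At snr-5 (WBGene00004918, III:7862070-7862574, plus strand; SmF) the pooled region was at -967, near the upstream edge of the window, with a signal of 42.8 at rank 25039. Replicate 2 had it at -979 with a signal of 37.9 at rank 15359, and replicate 1 had no region in the window. At snr-7 (WBGene00004920, I:2727014-2727545, plus strand; SmG) the pooled region was at -216 with a signal of 38.9 at rank 29657, close to the end of the list. Replicate 1 had a summit at -47 with a signal of 27.8 at rank 6955, and replicate 2 had none in the window. At snr-5 and snr-7 a region was thus listed in 1 of the 2 replicates only.

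**Figure D2:**
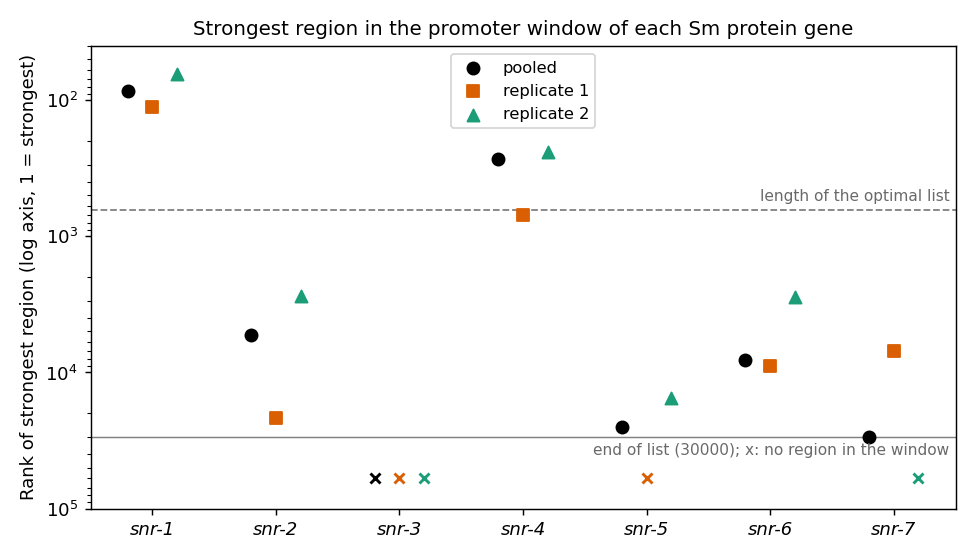
Rank of the strongest region in the promoter window of each Sm protein gene in the pooled list and in each replicate, on a log axis with the strongest at the top. The dashed line is the length of the optimal list (642), the solid line the end of each list (30000), and a cross marks a list with no region in the window. Only snr-1 is above the dashed line in all 3 lists, and snr-4 is above it in the pool and in replicate 2.

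By pooled signal the order of the genes was snr-1, snr-4, snr-2, snr-6, snr-5 and snr-7, with snr-3 not listed. The order differed between replicates. In replicate 1 it was snr-1, snr-4, snr-7, snr-6 and snr-2, and in replicate 2 it was snr-1, snr-4, snr-2, snr-6 and snr-5. The first and second places were the same in both. The order of the genes below them was not shared, and in replicate 2 snr-2 and snr-6 were next to each other, at ranks 2750 and 2769.

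Counted over the whole lists, 6 of the 7 genes had a pooled summit of some rank in the window, against 38.3% of all protein-coding genes. Replicate 1 had 5 of 7 (37.9% of all genes) and replicate 2 had 5 of 7 (38.4%). These lists hold background regions by design, and a listing at any rank is not a peak call. Among the strongest 642 regions of replicate 1, 1 gene was reached, snr-1 (1.51% of all genes), and among those of replicate 2, snr-1 and snr-4 (1.91%). Of the 642 optimal peaks, 398 overlapped a top 642 region in both replicates. At this stricter level snr-1 alone remained of the Sm genes (1.11% of all genes).

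Set against the strongest promoter region of every protein-coding gene, 36 genes had a higher pooled signal than snr-1 and 155 a higher one than snr-4. For snr-2 the number was 2107, for snr-6 2910, for snr-5 6747 and for snr-7 7589, of 7659 genes with a pooled region. The pooled signal of snr-1 was 5.71 times the median of those genes (58.8), that of snr-4 3.46 times and that of snr-2 1.28 times. The snr-5 and snr-7 values were 0.729 and 0.663 times the median. Optimal peaks ended at a signal of 139.60 and the next pooled region had 139.52, and no Sm gene had a value near that boundary.

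**Figure D3:**
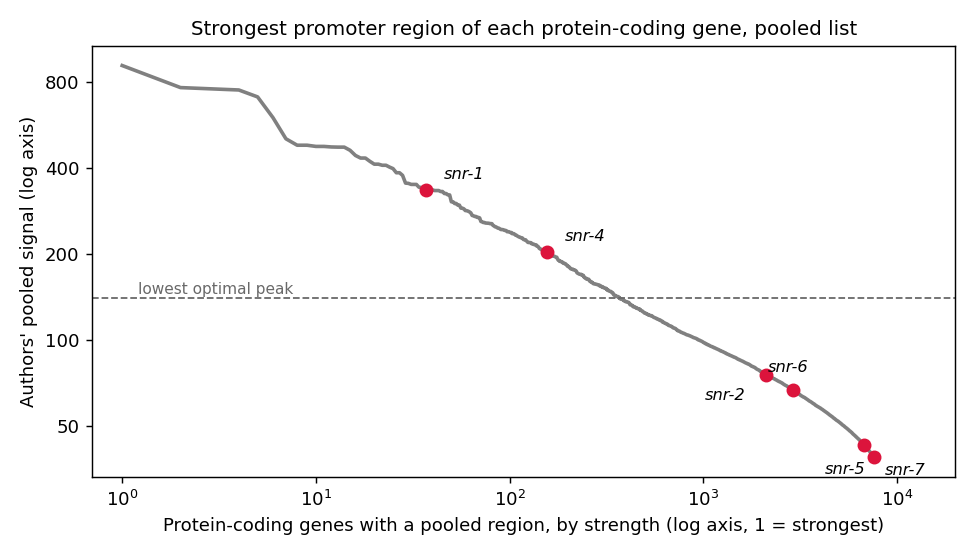
Authors' pooled signal of the strongest promoter region of each of the 7659 protein-coding genes with one, in order of strength (both axes log). Red points are Sm protein genes, and the dashed line is the lowest optimal peak. The genes snr-1 and snr-4 are above the line, snr-2 and snr-6 well below it, and snr-5 and snr-7 at the weak end.

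Positions varied among the members. In the pooled list the strongest summit was upstream of the 5' end at snr-1, snr-4, snr-5, snr-6 and snr-7 and downstream of it at snr-2. Over the 370 genes with an optimal summit, the median offset was -283.5 bp (quartiles -537 and -149.5 bp). The snr-1 and snr-4 summits were thus farther upstream than the median, and 127 and 99 of the 370 genes had one at least as far. Taking the strongest pooled summit of each gene, 1 of the 6 Sm genes with one, snr-4, had a small RNA gene at most 200 bp away, against 2.35% of all genes with one. Most of those summits were not optimal peaks, as that of snr-4 was. Among the 370 genes with an optimal summit the share was 20.8%.

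**Figure D4:**
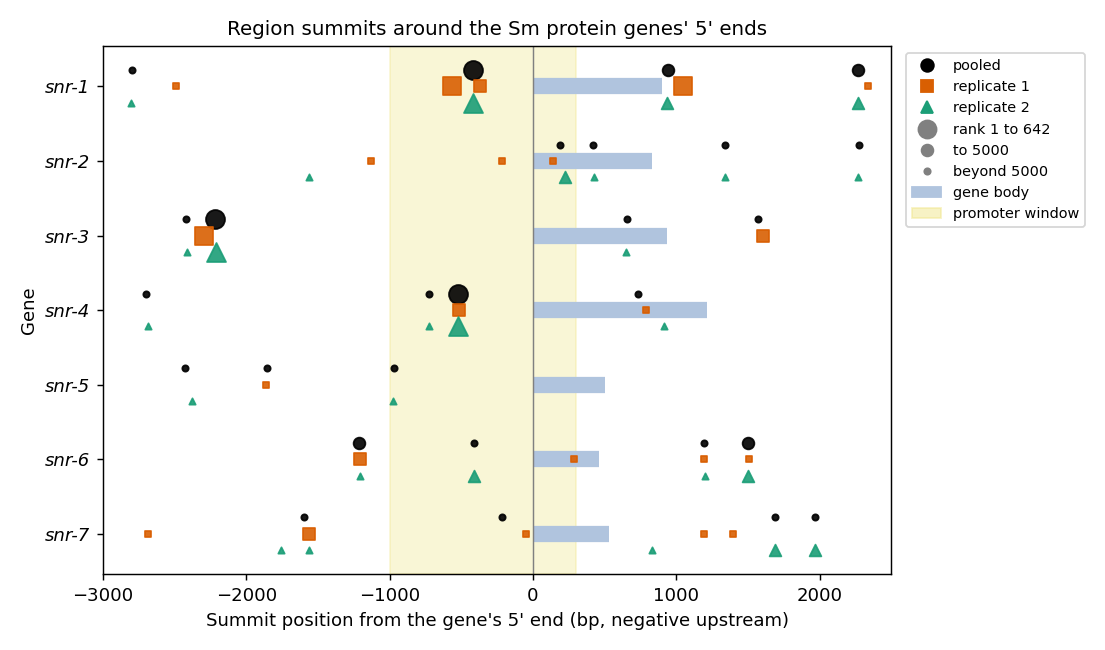
Summits of listed regions around each Sm protein gene, by distance in bp from its 5' end (negative upstream), in the pooled list and in each replicate. Large symbols are regions ranked within 642, middle ones those up to 5000 and small ones the rest; blue bars are gene bodies and the yellow band is the promoter window. Large symbols fall inside the band at snr-1 and snr-4, beyond it upstream of snr-3, and past the end of snr-1 in replicate 1.

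Many C. elegans genes are transcribed in operons from a promoter at the first gene, so the genes upstream were examined. No operon annotation was used; a neighbour on the same strand within 500 bp was taken as a candidate. None of the 7 genes had such an upstream neighbour, so each was taken as the first gene of its unit. At 6 of the 7 the upstream neighbour was on the opposite strand, and at snr-4 it was rpt-1, a proteasome subunit gene, 810 bp away on the same strand. Downstream, 3 had a same-strand neighbour within 500 bp: snr-1, whose end overlaps Y116A8C.43 by 96 bp, snr-2, with ola-1 102 bp away, and snr-4, with mif-2 48 bp away. A pooled region also lay at the 3' end of snr-1, 944 bp from its 5' end and 142 bp inside Y116A8C.43, with a signal of 113 at rank 1211. It ranked higher in replicate 1, at 641 (signal 49.1, summit at 1045), than in replicate 2, at 4035 (57.9, summit at 937).

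Genes with the pooled signals closest to the members were of mixed kinds, in order of the difference in log2 signal. Just above snr-1 were nhr-255, a nuclear hormone receptor gene (signal 341, 0.023 higher on the log2 scale), and Y54G11A.2 (340.2, 0.019 higher). Just below was a peak shared by lev-9 and mom-1 (334.6, a log2 difference of -0.0045), where mom-1 encodes the porcupine acyltransferase of Wnt signalling. At nhr-255 and at lev-9 and mom-1 a tRNA gene lay within 200 bp of the summit, and at Y54G11A.2 no small RNA gene did. Around snr-4 the neighbours were Y75B8A.23 (203.97), rpl-24.2 (203.48) and a peak shared by pqn-71 and rocf-1 (202.3). Y75B8A.23 had the spliced leader gene sls-2.8 and pqn-71 and rocf-1 had tRNA genes within 200 bp, and rpl-24.2 had none. Likeness was measured on 1 value per gene in the pooled list.

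The remaining spliceosome was represented by 59 named genes, of which 58 matched the annotation; mog-6 was not matched. Of these 58, 1 had an optimal peak in the window, prp-19, which encodes a ubiquitin ligase of the spliceosome (1.85% of all genes had one). Its pooled signal was 157 at rank 468, and the region ranked 696 in replicate 1 and 514 in replicate 2. Its summit was at -617. None of the 8 LSm genes, whose products form rings like that of the Sm proteins, among them the ring on U6 snRNA, had one. The strongest of these were lsm-6 (pooled signal 127, rank 835) and lsm-3 (121, rank 973). No optimal peak was found at the 9 genes of U1 and U2 particle proteins, the 3 of splice site recognition, the 13 of the tri-snRNP, the 8 SR protein genes or the 4 genes for SMN assembly and Sm methylation, which act in loading the Sm ring onto RNA. Below prp-19 in its own group, mog-3 had a pooled signal of 131 at rank 770. The signals of snr-1 (336) and snr-4 (203) were higher than that of any of these 58 genes. Both were known to have peaks when the Sm genes were named, so nothing is read from this. The other Sm genes with a region had signals from 75.4 (snr-2) to 38.9 (snr-7), and snr-3 had no region. All of these were below prp-19, mog-3, lsm-6 and lsm-3.

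**Figure D5:**
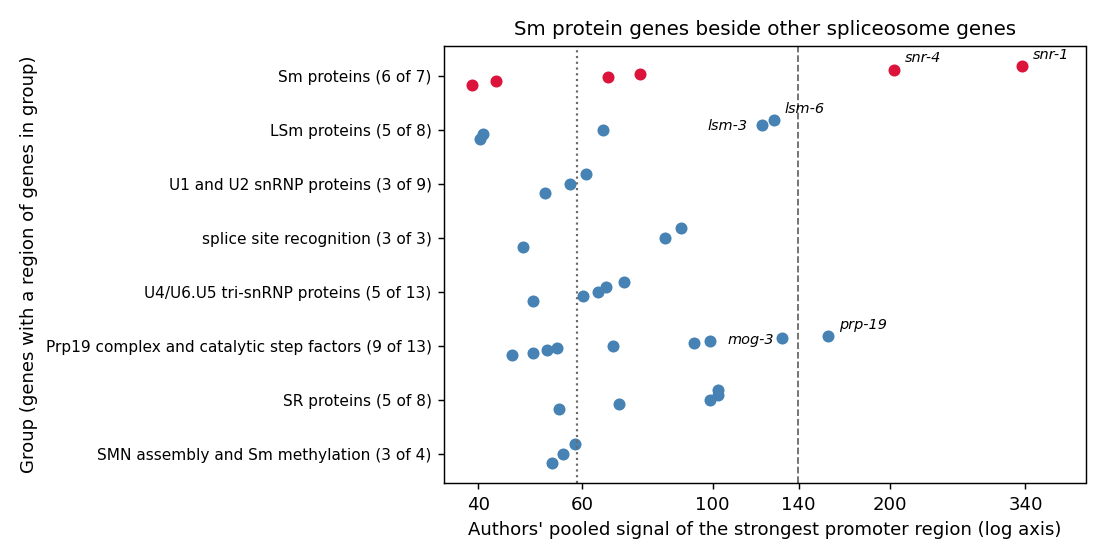
Authors' pooled signal (log axis) of the strongest promoter region of each Sm protein gene (red) and of other spliceosome genes (blue) by group, with the number of genes that had a region beside each group. The dashed line is the lowest optimal peak and the dotted line the median of all genes with a region (58.8). The points past the dashed line are snr-1, snr-4 and prp-19.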

How the data were processed

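Chromatin immunoprecipitation with an antibody to GFP was sequenced in 2 biological replicates of 1 group. Per the deposited file descriptions, each replicate's alignment, and both pooled, gave a list of peaks and background regions with a control alignment, and the optimal list passed a threshold on consistency of rank (IDR). The sources used here do not give the aligner, the peak caller, their versions, the threshold or the depth. The authors' lists give a signal per region, of unstated scale, a −log10 q value, used as description, and a summit offset in the file (the only other deposited column used). The lists in ce10 were not used.

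All ce11 coordinates were within the WBcel235 chromosome lengths. Ensembl release 115 transcripts gave 5' ends, RefSeq gave sequence, names and products. Positions are 1-based. Window assignment was tested on simulated data. Small RNA genes are tRNA, snRNA, snoRNA, miRNA and rRNA genes. Python 3.11.15, pandas 2.3.3 and blastn 2.17.0 were used. Members, gene lists and the first 3 motifs were chosen with earlier results of these data known. Named genes are the members, genes sharing their peaks, small RNA genes within 200 bp, the 2 genes above and below each peak by pooled signal, and spliceosome genes with an optimal peak or, where fewer than 3 had one, the 3 with the strongest region. Outside this rule, and named after values were seen, are neighbouring genes and genes at flanking regions (T28D9.1, T28D9.11, T28D9.13, Y116A8C.43, rsp-5, rpt-1, ola-1, mif-2, pie-1, Y49E10.16, Y71F9B.6, mir-356.1, mir-356.2), the snRNA copies, lsm-3 and cacn-1.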

Additional observations from a re-analysis of the deposited data

How the results depend on the processing

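The count of Sm genes with an optimal peak was 2 (snr-1 and snr-4), and was the same with candidate operons included. It stayed 2 with a window from 2000 bp upstream to 500 bp downstream and with any overlap. It was also 2 in the top 1926 pooled regions and with operon gaps of 200 and 1000 bp. None of these settings could lower the count. With only the most upstream 5' end of each gene it was 2, which was fixed because snr-1 and snr-4 have 1 transcript each. In the stronger 321 peaks it was 2. With a window from 500 bp upstream to 100 bp downstream it was 1 (snr-1). With peaks ranked in the top 642 of both replicates it was also 1 (snr-1). With each peak given to the nearest protein-coding 5' end it was 1 (snr-4, since snx-13 takes the other). Small RNA genes were not candidates in that setting, and the snr-4 summit lies inside the snRNA gene C52E4.8. The nearest-gene setting was not applied to operons. Leaving out either replicate gave 1 to 2, where replicate 1 alone lost snr-4 (rank 699). The count with a top 642 region was 1 in the narrow window and 1 to 2 without a replicate. The 6 genes with a pooled region became 3 in the narrow window, 5 in either replicate, and 7, snr-3 included, in the wide window and with any overlap of region and window. The strongest Sm rank, 85, ranged from 64 to 113 without a replicate. The 1 gene with a small RNA gene near its strongest summit (snr-4) became 2 at 1000 bp, with snr-5. The 1 other spliceosome gene (prp-19) became 0 in the narrow window and in the stronger 321 peaks. The count was also 0 with peaks in the top 642 of both replicates and with the nearest protein-coding gene. It was 0 to 1 without a replicate, 2 in the wide window (with cacn-1) and 7 in the top 1926 regions. Why the counts differed beyond these constructions was not tested. No paired analysis was possible because there is 1 group and no comparison between groups. Unknown depth leaves no way to say whether a missing region is unbound.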

Other observations

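Regions outside the promoter windows of the Sm genes were mostly of low rank. Downstream of snr-6, which overlaps the end of pie-1 by 24 bp, a pooled summit lay inside pie-1, a germline regulator gene, with a signal of 95.2 at rank 2258; it ranked 20995 in replicate 1 and 2317 in replicate 2. Upstream of snr-6, at -1210 bp, a pooled summit inside Y49E10.16 had a signal of 84.8 at rank 3498, with rank 1795 in replicate 1 and 10691 in replicate 2. These places were stronger in the pool than the snr-6 promoter region itself (66.5), and the replicates ranked them in opposite orders. Upstream of snr-7, at -1598 bp, a pooled summit inside Y71F9B.6 had a signal of 76.3 at rank 5116. Replicate 1 had a summit at -1562 with rank 3623. Replicate 2 had summits at -1759 (rank 12054) and -1559 (rank 18021). Upstream of snr-5, at -1854 bp, a pooled summit with a signal of 41.5 at rank 26543 lay within 200 bp of the microRNA genes mir-356.1 and mir-356.2.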
